A study of Mus musculus with 8 samples.

Results

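The genes described here encode 9 enzymes that immune cells use to turn metabolites into signals, defence molecules or building blocks. They are Acod1 (ENSMUSG00000022126), Ch25h (ENSMUSG00000050370), Arg1 (ENSMUSG00000019987), Arg2 (ENSMUSG00000021125), Nos2 (ENSMUSG00000020826), Gch1 (ENSMUSG00000037580), Odc1 (ENSMUSG00000011179), Upp1 (ENSMUSG00000020407) and Bst1 (ENSMUSG00000029082). They were picked by name, with earlier results of these data known, from 32227 genes counted, and were measured in 5 myeloid classes (microglia, macrophages, monocytes, neutrophils and dendritic cells), which gives 45 pairs of gene and class. Male C57Bl/6J mice aged 5 to 6 months per the labels were injected once into the peritoneum with lipopolysaccharide (LPS, the endotoxin of gram-negative bacteria) at 15000000 EU/kg or with saline, and brains were taken 24 hours later without perfusion, so blood cells in vessels were counted too. The tissue was dissociated enzymatically with DMSO vehicle or with inhibitors of transcription and translation (actinomycin D, triptolide and anisomycin), cells were enriched for CD45 on magnetic columns, and single cells were captured by PIPseq. Each of the 4 combinations of injection and dissociation had 2 mice with 1 library each, 8 in all, and replicate 1 and replicate 2 were captured in different batches. The mice carried no transgene or deletion named in the labels. All levels are UMIs (unique molecules) per 1000000 UMIs of the class in a library (CPM), and values of a group are listed for DMSO replicates 1 and 2 and then inhibitor replicates 1 and 2.

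Acod1 makes itaconate from the TCA cycle intermediate cis-aconitate, and itaconate inhibits succinate dehydrogenase and activates the NRF2 response. Ch25h makes 25-hydroxycholesterol, an oxysterol that restrains cholesterol synthesis and is the precursor of the ligand of the chemotactic receptor GPR183. The arginases Arg1 and Arg2 convert arginine to ornithine, from which Odc1 makes the polyamine putrescine, while Nos2, the inducible nitric oxide synthase, uses the same arginine and needs tetrahydrobiopterin, whose synthesis Gch1 starts. Upp1 splits uridine into uracil and ribose 1-phosphate, and Bst1 (CD157) is a surface enzyme that consumes NAD and is a known marker of maturing myeloid cells. In myeloid cells exposed to endotoxin, Acod1, Ch25h and Nos2 are textbook genes of the inflammatory response.

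Promoter sequences were taken from the promoter table used here (RefSeq, GRCm38.p6), to show what lies just upstream of genes whose transcripts moved with LPS. Acod1, Ch25h, Gch1, Odc1 and Upp1, 5 of the 9, had an entry in it, and all of these but Odc1 are printed. A member without an entry in that table may still be annotated in RefSeq for GRCm38.p6. This build is not the one that the counts were made on, so the coordinates are used for the sequences alone. The 250 bases before the annotated start are printed 5′ to 3′ on the strand of the gene, with matches in capitals. The motifs searched on both strands were C/EBP (TTNNGNAA), AP-1 (TGANTCA), GAS (TTCNNNGAA), the hypoxia response element (ACGTG), NF-kB and ISRE.
Acod1, chr14:103046762-103047011, plus strand: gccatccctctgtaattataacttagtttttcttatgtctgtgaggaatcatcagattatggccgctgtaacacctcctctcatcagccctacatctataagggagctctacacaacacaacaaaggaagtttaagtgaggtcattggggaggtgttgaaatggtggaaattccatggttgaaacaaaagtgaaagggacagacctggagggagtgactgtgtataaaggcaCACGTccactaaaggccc
Ch25h, chr19:34475149-34475398, minus strand: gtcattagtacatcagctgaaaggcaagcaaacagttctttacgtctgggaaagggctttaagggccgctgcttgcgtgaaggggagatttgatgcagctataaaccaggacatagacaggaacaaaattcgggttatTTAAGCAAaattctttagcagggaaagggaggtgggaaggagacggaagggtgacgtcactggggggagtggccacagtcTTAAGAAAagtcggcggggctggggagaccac
Gch1, chr14:47189414-47189663, minus strand: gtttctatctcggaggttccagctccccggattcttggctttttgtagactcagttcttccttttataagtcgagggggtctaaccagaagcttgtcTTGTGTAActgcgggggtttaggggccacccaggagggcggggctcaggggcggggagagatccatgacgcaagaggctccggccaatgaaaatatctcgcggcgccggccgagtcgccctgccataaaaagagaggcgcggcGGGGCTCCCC
Upp1, chr11:9117758-9118007, plus strand: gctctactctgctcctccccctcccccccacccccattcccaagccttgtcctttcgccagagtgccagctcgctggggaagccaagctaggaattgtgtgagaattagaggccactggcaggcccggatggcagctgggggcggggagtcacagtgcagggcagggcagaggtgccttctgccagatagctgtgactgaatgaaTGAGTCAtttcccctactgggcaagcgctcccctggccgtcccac
The capitals mark 1 match to the hypoxia response element in Acod1 (on the opposite strand, bases -18 to -14 from the start), 2 to C/EBP in Ch25h (-112 to -105 and -32 to -25), 1 to C/EBP and 1 to NF-kB in Gch1 (-153 to -146 and -10 to -1) and 1 to AP-1 in Upp1 (-45 to -39). The window of Odc1 held none of these letters. Upp1 has further annotated starts, and the window shown is that of the first. Among 32851 promoter windows of the same length, 36.8% held a C/EBP match, 16.6% a hypoxia response element, 7.25% an NF-kB match, 7.02% a GAS match, 6.75% an AP-1 match and 2.98% an ISRE match. The matches are a description of these letters and no measurement of binding.

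Library totals lay between 90352359 and 141182123 UMIs, and 119053 cells passed the limits on UMIs, genes and mitochondrial share, of which 96904 fell into the 5 myeloid classes: 84853 microglia, 4556 macrophages, 5047 monocytes, 2061 neutrophils and 387 dendritic cells. Of 118918 distinct cell barcodes, 125 occurred in 2 or more libraries. Each class carried its own markers, but 12 microglial markers summed to 6873 to 8158 CPM in LPS microglia against 37044 to 38788 CPM in saline microglia, and 12 macrophage markers to 4051 to 5043 against 14853 to 15976 CPM in macrophages. Cells that no class claimed made up 3.87 ± 0.962% of a saline library and 20.9 ± 2.11% of an LPS library (SD, n = 4 each), and their member levels are given where they bear on a result. The marker makeup of other classes moved too, since 12 neutrophil markers reached 11502 CPM in the monocytes of saline DMSO replicate 2 against 159 to 2206 CPM in the other saline libraries, and 12 monocyte markers in neutrophils summed to 1918 to 4857 CPM with saline and 5434 to 7447 CPM with LPS. Their part in the results was not tested. Free RNA, read from barcodes with 1 to 99 UMIs, took 15.5 to 33.7% of a library. In the LPS libraries it carried Acod1 at 373, 135, 429 and 422 CPM and Ch25h at 431, 122, 409.7 and 381 CPM, so T and NK cells, which should lack both, serve as a blank. LPS DMSO replicate 2 stood apart with the lowest Acod1 and Ch25h of the LPS libraries in microglia and in free RNA. Values without it are given for the microglial fold changes of both genes and for some of their means by class.

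**Figure D1:**
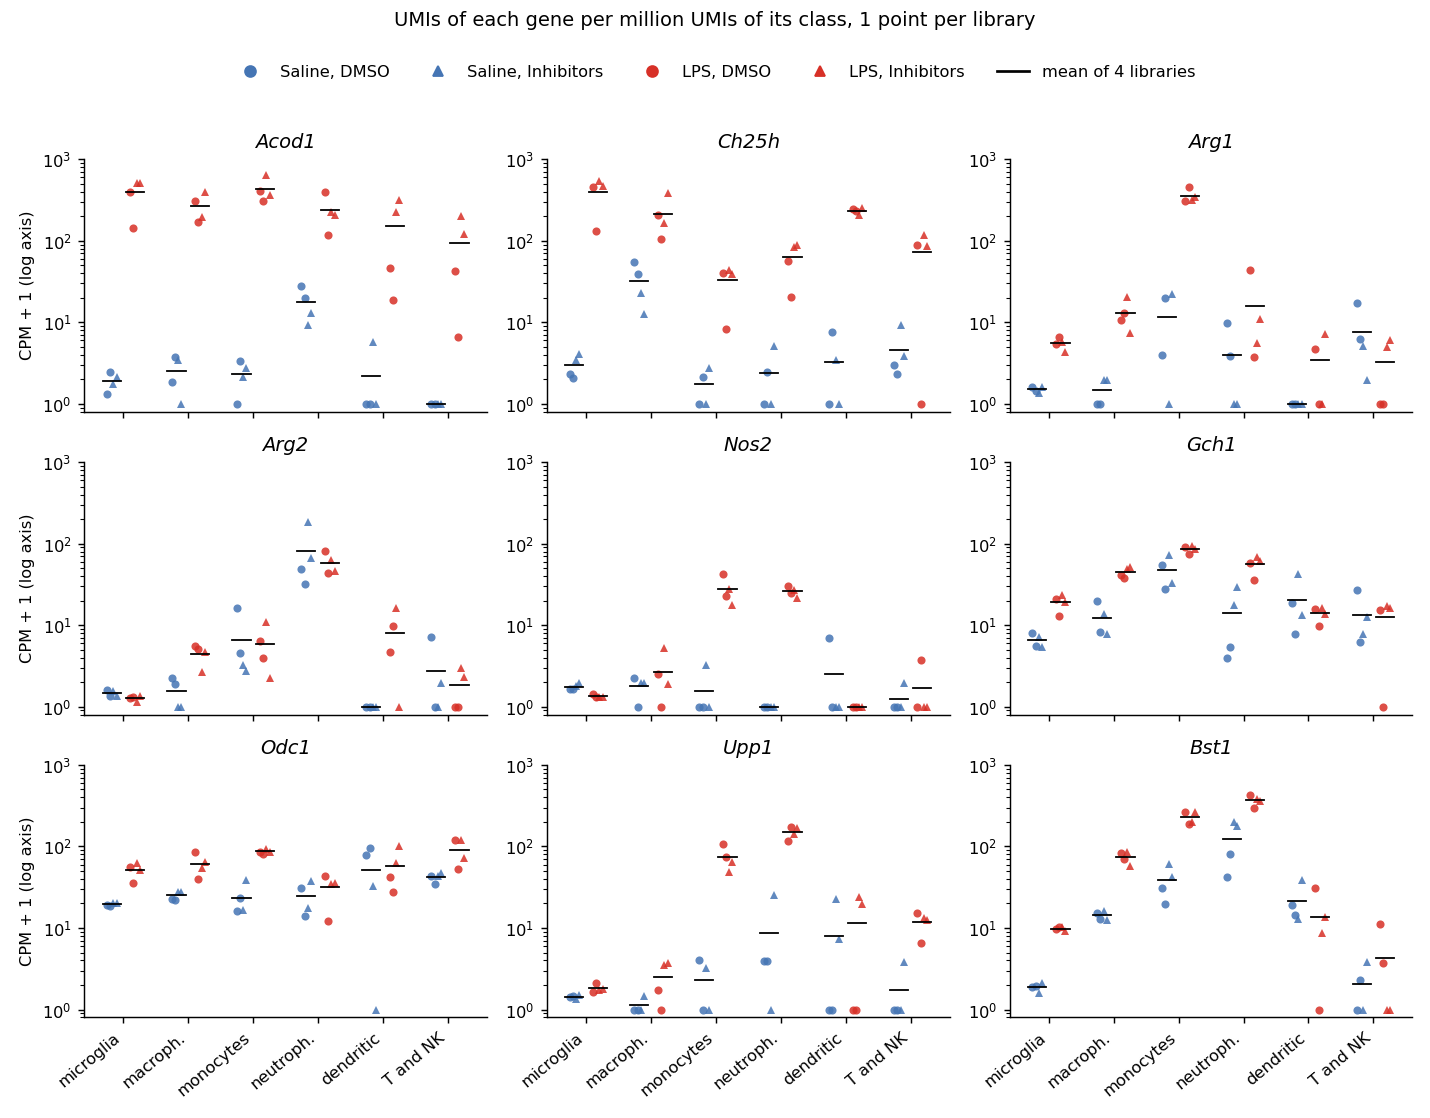
Level of each of the 9 genes (CPM, log axis of CPM + 1) in each of the 5 myeloid classes and in T and NK cells, with 1 point per library (4 saline and 4 LPS, DMSO and inhibitors distinguished) and a bar at the group mean. In microglia the 4 LPS libraries lie at 141 to 514 CPM for Acod1 and at 132 to 537 CPM for Ch25h, with no saline library above 3.13 CPM for either gene.

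LPS was compared with saline in each class, on UMIs summed per library, by the quasi-likelihood test of edgeR, and p-values were adjusted by Benjamini and Hochberg over all genes tested in the class. Of the 45 pairs, 31 had enough UMIs to be tested and 27 were called at an adjusted p under 0.05, each of them higher with LPS. None was called lower, and over all genes of the 5 classes 24.9% were called lower. By class, 7 of 9 tested members were called higher in microglia, 5 of 5 in macrophages, 8 of 8 in monocytes, 6 of 8 in neutrophils and 1 of 1 in dendritic cells, against 30.2%, 25.2%, 14.8%, 11.7% and 16.7% of all genes tested in these classes. An absolute log2 fold change over 2 was reached by 23 of the called pairs, against 6.89% of all genes tested. The members were chosen with results known, so these counts describe them and are no test. A pair could also pass the filter on low counts through its LPS libraries alone, as Nos2 in neutrophils did with 0 saline and 79 LPS UMIs. Gch1 and Bst1 in dendritic cells, whose means were lower with LPS (19.5 to 12.9 and 20.2 to 12.5 CPM), were too sparse to be tested. The scaling matters for microglia. With TMM factors the median log2 fold change of all microglial genes was -0.19, and with library totals alone it was -0.94, a shift of -0.75, and the share of called genes that were higher went from 45.8% to 17.4%. The shift was -0.34 in macrophages, -0.12 in monocytes, -0.16 in neutrophils and -0.08 in dendritic cells, and the share called higher there went from 49.4, 48.6, 51.8 and 53.04% to 27.1, 38.5, 38.02 and 48.5%. All 27 calls held with library totals, where Nos2 and Arg2 were in addition called lower in microglia. Fold changes below are on the TMM scale, and CPM values are on library totals.

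**Figure D2:**
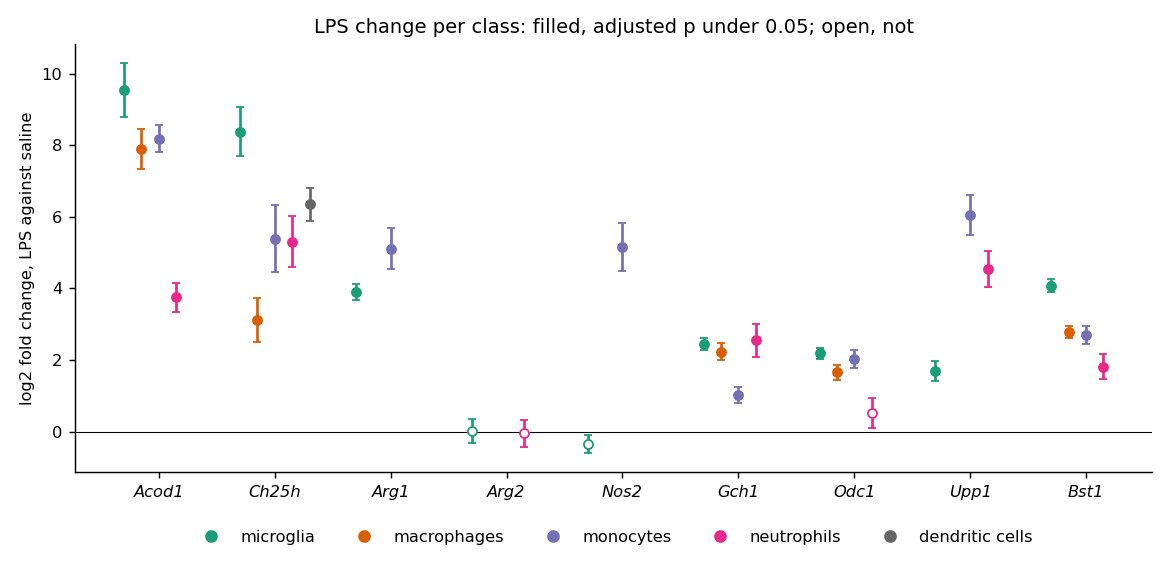
Log2 fold change of LPS over saline (TMM scale) of each gene in each class, with 1 SE, filled where the adjusted p was under 0.05 and open where it was not. Pairs with too few UMIs for the test are absent, and so is Nos2 in neutrophils, which had 0 UMIs in every saline library. Acod1 (9.54) and Ch25h (8.38) in microglia are the highest points, and Nos2 and Arg2 lie near 0 in microglia.

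Acod1, the itaconate-producing enzyme, went from near absence to over 100 CPM in microglia, macrophages and monocytes. In microglia it stood at 0.304, 1.46, 0.769 and 1.15 CPM in the saline libraries and at 401, 141, 509 and 514 CPM in the LPS libraries. Its log2 fold change there was 9.54 (SE 0.75, adjusted p = 2.08e-05), and 9.84 without LPS DMSO replicate 2. The groups did not come near each other, and the low LPS value was that of DMSO replicate 2. In macrophages Acod1 stood at 0.842, 2.76, 2.45 and 0 CPM with saline and at 307, 171, 193 and 395 CPM with LPS, which is 7.90 on the log2 scale (SE 0.55, adjusted p = 4.77e-06). In monocytes it stood at 0, 2.33, 1.12 and 1.77 CPM with saline and at 402, 306, 645 and 362 CPM with LPS, which is 8.19 on the log2 scale (SE 0.38, adjusted p = 2.33e-08). Saline levels in both classes rested on 10 and 4 UMIs. Neutrophils differed in that they held Acod1 already with saline, at 26.7, 18.9, 8.27 and 12.2 CPM, on only 26 UMIs in all. They went to 398, 117, 225 and 208 CPM with LPS (3.75 on the log2 scale, SE 0.40, adjusted p = 1.15e-05). In dendritic cells Acod1 was too sparse to be tested, with 2 UMIs over the saline libraries and 44.8, 17.6, 224 and 319 CPM with LPS. The unclaimed cells of the LPS libraries held Acod1 at 198 to 746 CPM and Ch25h at 164 to 655 CPM.

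Ch25h, the 25-hydroxycholesterol synthase, reached the level of Acod1 in microglia, and much lower levels in monocytes and neutrophils. In microglia it stood at 1.33, 1.10, 2.44 and 3.13 CPM with saline and at 461, 132, 537 and 467 CPM with LPS. Its log2 fold change was 8.38 (SE 0.68, adjusted p = 2.42e-05), and 8.70 without LPS DMSO replicate 2. Macrophages held Ch25h before LPS, at 53.9, 38.6, 22.04 and 11.6 CPM, and rose to 208, 105, 166 and 382 CPM, so that their fold change of 3.12 (SE 0.60, adjusted p = 0.0051) was smaller than that of microglia. Dendritic cells went from 2 UMIs over all saline libraries to 246, 228, 208 and 250.5 CPM (6.35 on the log2 scale, SE 0.47, adjusted p = 3.21e-08), the 4 LPS values lying close together. In monocytes the LPS level was only 39.8, 7.26, 42.9 and 37.9 CPM and in neutrophils 56.1, 19.7, 83.5 and 87.8 CPM. Both were called, with log2 fold changes of 5.39 and 5.31 (adjusted p = 0.0011 and 9.47e-05), which became 6.08 and 5.97 without saline inhibitors replicate 2. Both fell under the filter on low counts once free RNA, scaled to the hemoglobin transcripts of 4 genes in each class, was subtracted. The share subtracted was 0.0199 to 0.0406 in LPS monocytes and 0.0441 to 0.0664 in LPS neutrophils. T and NK cells of the same libraries held Ch25h at 88.5, 0, 117 and 84.9 CPM. In LPS DMSO replicate 2 the T and NK cells, with 361250 UMIs in all, held no Ch25h UMI, while monocytes and neutrophils did. In every other LPS library T and NK cells held Ch25h at a higher level than monocytes. They also lay above neutrophils in DMSO replicate 1 and inhibitors replicate 1, and below them in inhibitors replicate 2. The part of free RNA in the monocyte and neutrophil values was not tested further.

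**Figure D3:**
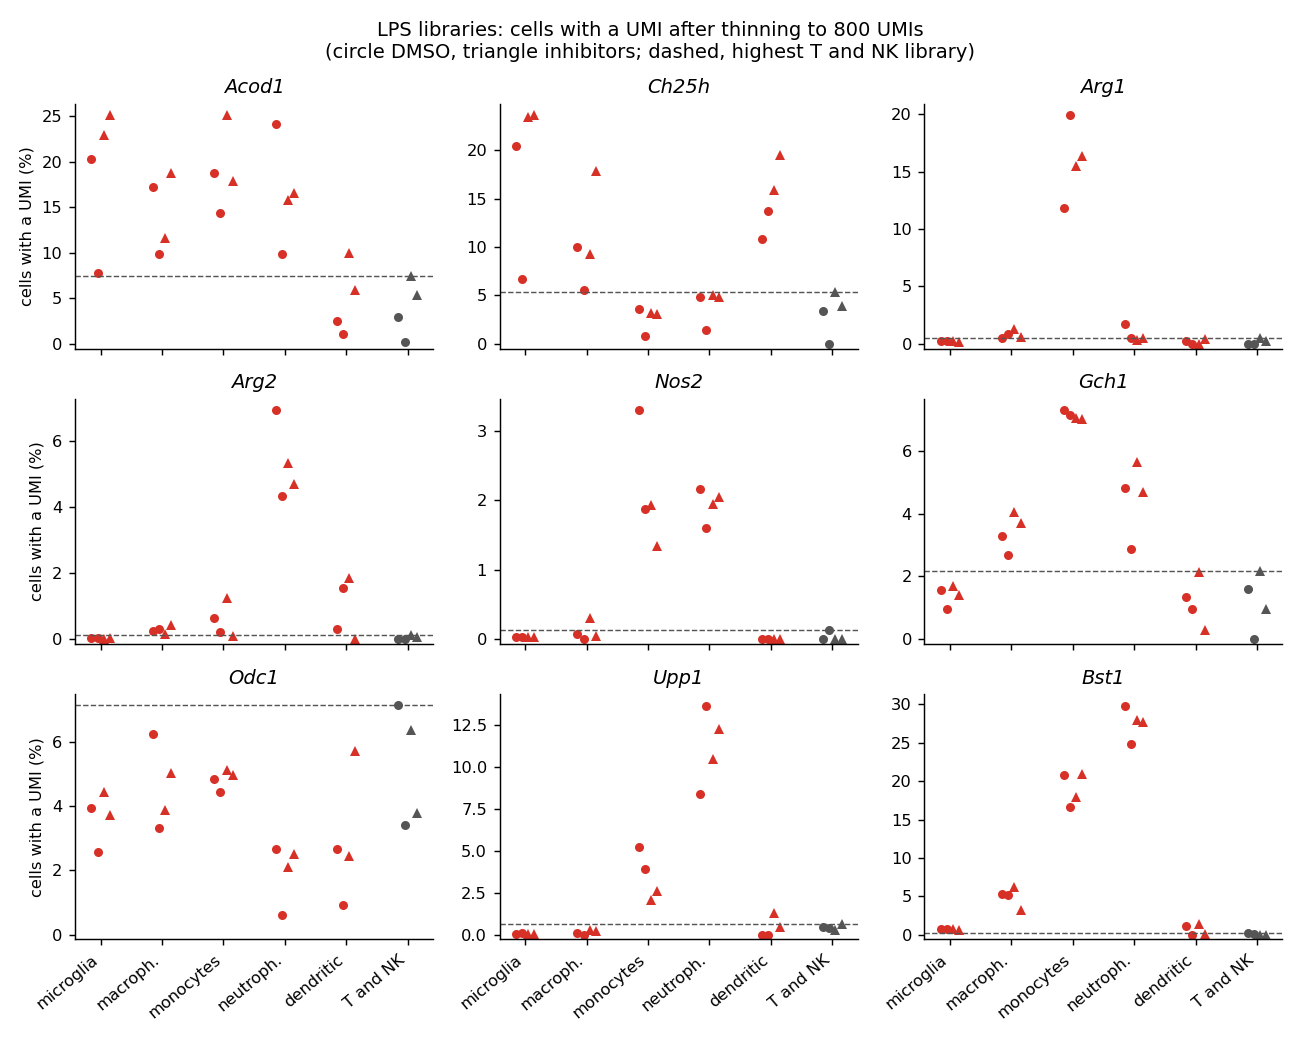
Percent of cells with at least 1 UMI of each gene in the LPS libraries, after each cell was thinned to 800 UMIs, by class, with T and NK cells for comparison and 1 point per library. Ch25h lies at 6.73 to 23.6% in microglia and at 0.772 to 3.61% in monocytes, and the highest T and NK library lies at 5.34%.

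Shares of cells with a UMI were set against the same shares in T and NK cells. Depth per cell moved with LPS, and not in the same direction in all classes. The library medians were 2238 to 3221 UMIs with saline and 5040 to 5820 UMIs with LPS in microglia, but 3052 to 5720.5 and 1678 to 2509.5 UMIs in dendritic cells. In neutrophils they were 1633 to 2219 and 1387 to 1649 UMIs, and in macrophages and monocytes the groups overlapped. Each cell was therefore thinned to 800 UMIs. In 31 of the 45 pairs all 4 LPS libraries then lay above all 4 saline libraries, and in 30 as counted, against 6.48% of all genes with a UMI over the 5 classes. Acod1 was seen in 7.83 to 25.1% of LPS microglia, 9.90 to 18.8% of macrophages, 14.3 to 25.1% of monocytes and 9.84 to 24.1% of neutrophils, and in 0.197 to 7.40% of T and NK cells. Unthinned shares were 24.4 to 58.2% of microglia, 20.1 to 39.3% of macrophages, 32.9 to 48.3% of monocytes, 16.9 to 38.03% of neutrophils and 1.89 to 20.1% of T and NK cells, so that as counted the lowest macrophage and neutrophil libraries did not lie above the highest T and NK library. The median depth was 2171 to 2534 UMIs in LPS macrophages and 2451.5 to 3245.5 UMIs in LPS T and NK cells. Acod1 in LPS dendritic cells (1.04 to 10.02%) overlapped the T and NK cells. Arg1 and Upp1 in microglia (0.205 to 0.281% and 0.0594 to 0.1002%) lay below the highest T and NK library. With free RNA subtracted the log2 fold changes in microglia were 3.90 for Arg1 and 1.60 for Upp1, both still called. The share subtracted from LPS microglia, scaled to hemoglobin, was only 0.0171 to 0.0206. On the same scale the LPS T and NK cells had shares of 0.0133 to 0.0569, while they held Acod1 at 5.54 to 201 CPM. The part of free RNA in the microglial values of Arg1 and Upp1 was not tested further. Gch1 and Odc1 are expressed by lymphocytes, so T and NK cells are no blank for them.

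The arginine-consuming enzymes parted by class. Arg1 was a monocyte transcript after LPS: monocytes held it at 3.01, 18.7, 0 and 21.3 CPM with saline and at 309, 451, 317 and 343 CPM with LPS (log2 fold change 5.11 (SE 0.58, adjusted p = 1.12e-04), and 5.78 without saline DMSO replicate 2). No saline monocyte library reached more than 21.3 CPM and no LPS one fell below 309 CPM. Arg1 in LPS microglia was at 3.37 to 5.57 CPM, in macrophages at 6.42 to 19.4 CPM and in neutrophils at 2.81 to 42.8 CPM. Its log2 fold change in microglia, 3.91 (SE 0.22, adjusted p = 2.98e-09), was therefore large on a level near 4.51 CPM. In macrophages and neutrophils it was too sparse for the test, with 4 and 5 UMIs over the saline libraries. With the capture batch as a replicate block, Arg1 in macrophages entered the test and was called (4.64, adjusted p = 1.74e-07), and its LPS libraries all lay above its saline libraries (at most 0.980 CPM).

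Arg2, the mitochondrial arginase, was a neutrophil transcript in both conditions, with no call for LPS. Neutrophils held 47.5, 30.6, 182 and 65.1 CPM with saline and 81.1, 42.2, 62.2 and 44.7 CPM with LPS, where the groups overlapped (-0.04 on the log2 scale, SE 0.38, adjusted p = 0.954). The high saline value, that of inhibitors replicate 1, set the width of the saline group, and without that library the log2 fold change was 0.40. In the other 4 classes Arg2 was at or below 15.4 CPM in every library, and in microglia, where it was tested, the log2 fold change was 0.01 (SE 0.33, adjusted p = 0.972) and -0.77 with library totals (adjusted p = 0.0492).

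Nos2, the inducible nitric oxide synthase, appeared in monocytes and neutrophils. Monocytes held 0, 0, 2.25 and 0 CPM with saline and 41.3, 21.5, 27.02 and 16.7 CPM with LPS (5.16 on the log2 scale, SE 0.67, adjusted p = 5.43e-05). The size rests on 2 saline UMIs, all in saline inhibitors replicate 1, and the fitted value without that library was 9.17 (adjusted p = 2.94e-04), which is no bound because the remaining saline monocytes held 0 UMIs. Neutrophils had 0 UMIs in all 4 saline libraries and 29.5, 23.9, 25.8 and 20.7 CPM with LPS, at least 11.2-fold higher than the floor of 3 counts over the saline group (2.16 CPM, adjusted p = 1.43e-04). The levels were low, and 1.34 to 3.30% of monocytes and 1.60 to 2.16% of neutrophils had a UMI at the thinned depth, above every T and NK library (0 to 0.136%). Microglia did not gain Nos2: they held 0.664, 0.630, 0.813 and 0.956 CPM with saline and 0.439, 0.332, 0.331 and 0.323 CPM with LPS, under 1 CPM in every library. As CPM each LPS library lay below each saline library, while on the TMM scale the log2 fold change was -0.34 (SE 0.25, adjusted p = 0.250) and with library totals -1.09 (adjusted p = 0.00168).

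Gch1, the first enzyme of tetrahydrobiopterin synthesis, was called higher with LPS in all 4 classes where it was tested. Monocytes had the highest level, 54.2, 26.8, 70.8 and 31.9 CPM with saline and 89.8, 74.3, 91.6 and 85.8 CPM with LPS, and the smallest fold change, 1.02 (SE 0.23, adjusted p = 0.00353). Microglia went from 7.03, 4.53, 6.21 and 4.47 CPM to 20.1, 12.1, 22.2 and 18.1 CPM (2.46 on the log2 scale, SE 0.17, adjusted p = 2.73e-08). Macrophages and neutrophils lay between them in level, with 11.3 to 44.4 and 13.1 to 55.4 CPM on average and log2 fold changes of 2.23 and 2.55 (adjusted p = 2.83e-07 and 0.00127). The neutrophil value was 3.45 without saline inhibitors replicate 2. Dendritic cells held 6.70 to 40.9 CPM with saline and 8.78 to 15.4 CPM with LPS, on 23 and 9 UMIs, and were not tested. With the inhibitor libraries alone the monocyte call was lost (log2 fold change 0.85, adjusted p = 0.0669).

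Odc1, which commits ornithine to polyamines, was present in every class before LPS, with means from 18.5 CPM in microglia to 50.6 CPM in dendritic cells (adjusted p of the difference = 0.00558). The dendritic mean rested on the DMSO libraries, since the saline dendritic cells held 77.5, 93.8, 31.3 and 0 CPM, and the inhibitor libraries lay on both sides of microglia. In microglia it stood at 18.2, 17.4, 19.2 and 19.3 CPM with saline and at 54.2, 35.1, 61.1 and 50.7 CPM with LPS (2.19 on the log2 scale, SE 0.15, adjusted p = 1.38e-08). Monocytes rose from 15.1, 22.1, 15.7 and 37.2 to 85.5, 79.5, 92.2 and 85.6 CPM (2.03 on the log2 scale, SE 0.24, adjusted p = 2.63e-05), and macrophages by 1.66 (adjusted p = 1.49e-06). In neutrophils the groups overlapped at 29.7, 13.1, 16.5 and 36.6 and 42.8, 11.2, 33.4 and 34.8 CPM, and the log2 fold change of 0.51 was not called (adjusted p = 0.411). T and NK cells held Odc1 at levels of the same size, 34.1 to 46.02 CPM with saline and 52.6 to 119 CPM with LPS.

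Upp1, the uridine phosphorylase, rose in neutrophils and monocytes. Neutrophils held 2.97, 2.91, 0 and 24.4 CPM with saline and 115, 174, 143 and 167 CPM with LPS (log2 fold change 4.55 (SE 0.50, adjusted p = 1.54e-05), and 5.89 without saline inhibitors replicate 2). The highest saline value, that of inhibitors replicate 2, rested on 6 UMIs and still lay below every LPS library. Monocytes held 3.01, 0, 2.25 and 0 CPM with saline and 106, 73.1, 47.7 and 62.7 CPM with LPS (6.05 on the log2 scale, SE 0.55, adjusted p = 2.71e-06), on 3 saline UMIs in all. Leaving out saline inhibitors replicate 1 gave 6.99. Microglia held 0.329 to 0.497 CPM and 0.651 to 1.10 CPM, a called difference of 1.70 (adjusted p = 7.87e-05) at a level below that of T and NK cells (5.54 to 14.4 CPM with LPS).

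Bst1, the NAD-consuming surface enzyme, was highest in neutrophils and was called in the 4 classes where it was tested. Neutrophils held 41.5, 80.1, 198 and 175 CPM with saline and 425, 297, 382 and 360.3 CPM with LPS (1.82 on the log2 scale, SE 0.34, adjusted p = 0.00163). The saline values split by ex vivo treatment, with both inhibitor libraries above both DMSO libraries. Monocytes went from 30.1, 18.7, 59.6 and 40.8 to 261, 187, 199 and 261 CPM (2.70 on the log2 scale, SE 0.26, adjusted p = 4.02e-06). Macrophages went from 14.3, 11.9, 15.2 and 11.6 to 82.02, 69.7, 85.2 and 55.9 CPM (2.78 on the log2 scale, SE 0.17, adjusted p = 1.45e-10), and microglia from 0.615 to 1.11 to 8.16 to 9.36 CPM (4.08 on the log2 scale, SE 0.19, adjusted p = 4.11e-10). In every one of these classes the groups were apart. Dendritic cells held 12.03 to 37.3 and 0 to 29.9 CPM, on 16 and 11 UMIs, and were not tested.

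The order of classes by level was not the same for all enzymes. Levels were compared within the LPS libraries in a joint fit of all classes with the mouse as a block, in which 43.9% of all comparisons of a gene between 2 classes were called, and 37.6% within the saline libraries. Values are mean CPM over 4 libraries. For Acod1 the order was monocytes (429), microglia (391), macrophages (266), neutrophils (237) and dendritic cells (151), where only the last neighbours differed (adjusted p = 0.0451). The dendritic mean rested on 94 UMIs, many of them in few cells, and its libraries ran from 17.6 to 319 CPM. The order of monocytes and microglia is not settled (adjusted p = 0.472), because the joint fit put microglia higher by 0.25 on the log2 scale, and without LPS DMSO replicate 2 the means were 475 CPM in microglia and 469.6 CPM in monocytes. Ch25h was highest in microglia (399), above dendritic cells (233, adjusted p = 0.00842) and macrophages (215, adjusted p = 0.00638), which did not differ from each other beyond their spread (adjusted p = 0.746). Without LPS DMSO replicate 2 the Ch25h means were 488 CPM in microglia, 252 CPM in macrophages and 235 CPM in dendritic cells. Arg1 was highest in monocytes (355), far above the next class, neutrophils (15.02, adjusted p = 1.78e-09). Arg2 was highest in neutrophils (57.6) over dendritic cells (6.98, adjusted p = 2.84e-05). Nos2 in monocytes (26.6) and neutrophils (24.98) did not differ beyond the spread (adjusted p = 0.252), and both lay above macrophages (1.66, adjusted p = 4.65e-10 and 1.86e-10). Gch1 in monocytes (85.4) and neutrophils (55.4) was not called different in the joint fit (0.23 on the log2 scale, adjusted p = 0.296). As CPM every monocyte library (74.3 to 91.6) lay above every neutrophil library (35.1 to 68.3). For Gch1 microglia (18.1) lay below macrophages (44.4, adjusted p = 1.30e-07). Odc1 lay between 50.3 and 85.7 CPM in all classes but neutrophils (30.5), which lay below microglia (adjusted p = 0.00356). Upp1 was higher in neutrophils (149.8) than in monocytes (72.4, adjusted p = 1.32e-06), and Bst1 ran from neutrophils (366) over monocytes (227, adjusted p = 3.54e-08) and macrophages (73.2, adjusted p = 2.11e-08) to dendritic cells and microglia (12.5 and 8.85, adjusted p = 0.671).

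Some orders were present with saline alone. Bst1 was already higher in neutrophils (124 CPM) than in monocytes (37.3 CPM, adjusted p = 5.94e-07), and Ch25h higher in macrophages (31.5 CPM) than in microglia (2.001 CPM, adjusted p = 1.13e-08). Gch1 was higher in monocytes (45.95 CPM) than in microglia (5.56 CPM, adjusted p = 7.68e-19) and Arg2 higher in neutrophils (81.2 CPM) than in monocytes (5.65 CPM, adjusted p = 5.87e-08). Acod1 was higher in neutrophils (16.5 CPM, on 26 UMIs) than in microglia (0.919 CPM, adjusted p = 4.41e-04). Arg1 was higher in monocytes (10.7 CPM, on 29 UMIs) than in microglia (0.507 CPM, adjusted p = 8.15e-05) and macrophages (0.487 CPM, adjusted p = 0.00454). Its saline level in monocytes was not called different from that in neutrophils (2.95 CPM, adjusted p = 0.456). After LPS the Ch25h order of macrophages and microglia was the opposite one, with 215 and 399 CPM.

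Whether the LPS change itself differed from that of microglia was tested in the same joint fit. Of 36 pairs tested, 15 were called, 10 with a smaller change than microglia and 5 with a larger one, and the share of all genes called was 26.4% for macrophages, 34.0% in monocytes, 29.1% in neutrophils and 23.2% in dendritic cells. Acod1 changed less in neutrophils than in microglia, by -5.29 (SE 1.07, adjusted p = 3.95e-04) on the log2 scale, with 26 saline UMIs in neutrophils. Ch25h changed less in macrophages, by -5.01 (SE 0.51, adjusted p = 2.79e-08). Nos2 and Upp1 changed more in monocytes, by 5.67 (SE 0.71, adjusted p = 2.87e-09) and 4.60 (SE 0.94, adjusted p = 2.27e-04), and Upp1 more in neutrophils, by 3.16 (SE 0.77, adjusted p = 0.0018). Nos2 was called in neutrophils as well (adjusted p = 1.82e-07), where the size is not defined because all saline libraries held 0 UMIs. Gch1 changed less in monocytes, by -1.24 (SE 0.24, adjusted p = 3.67e-05), and Bst1 less in neutrophils, by -1.89 (SE 0.30, adjusted p = 2.23e-06). In dendritic cells the differences of Gch1, Odc1 and Bst1 were -3.03, -1.67 and -3.96 (adjusted p = 4.83e-05, 0.0123 and 3.87e-05), on 9, 38 and 11 UMIs with LPS. With LPS this class held mostly cells with Ccr7 or Cacnb3, unlike with saline, as described below. The part of that shift in these differences was not tested. The remaining calls were Bst1 in macrophages (-1.12) and monocytes (-1.18), Odc1 in neutrophils (-1.34) and Arg2 in macrophages (3.16, on 4 and 16 UMIs). With library totals, Bst1 in macrophages and monocytes and Odc1 in neutrophils and dendritic cells were no longer called. With DESeq2 neither Bst1 pair was called (adjusted p = 0.0827 and 0.0612). Both Odc1 calls were also lost with a stricter gate, in cells with at least 1500 UMIs and on leaving out any of several libraries. Leaving out the 8% of cells with most UMIs lost them too, and Bst1 in macrophages. Odc1 in neutrophils was lost with free RNA subtracted as well. Without saline inhibitors replicate 1 the count was 10, with Gch1 in dendritic cells lost besides these 4 calls. Without that library the size for Nos2 in monocytes is not defined, since the remaining saline monocytes held 0 UMIs, and the difference was -0.35 for Bst1 in monocytes (adjusted p = 0.428) and -1.76 for Gch1 in dendritic cells (adjusted p = 0.141). For Upp1 in monocytes it was 5.93. Other calls that moved by over 1.5-fold on leaving out 1 library stayed called in that fit. They were Acod1 in neutrophils (-4.44), Ch25h in macrophages (-4.21) and Arg2 in macrophages (4.61) without saline DMSO replicate 1, Upp1 in neutrophils (4.63) without saline inhibitors replicate 2, and Bst1 in dendritic cells (-5.11) without LPS DMSO replicate 1. Arg2 in macrophages lost its call without LPS DMSO replicate 1 (2.99, adjusted p = 0.0786) and without LPS DMSO replicate 2 (3.11, adjusted p = 0.0577). A stricter gate lost it too (2.06, adjusted p = 0.208). The replicate block in place of the mouse block lost the call of Odc1 in neutrophils (adjusted p = 0.0526).

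Within a class the members were not spread evenly. LPS microglia with a Marco UMI held Acod1 at 426 against 335 CPM in the microglia without one and Ch25h at 437 against 339 CPM, higher in 4 of 4 libraries for both. Marco encodes a scavenger receptor of macrophages. Among LPS monocytes, cells with Ly6c2 or Ccr2 and without Ace and Treml4, the classical type by these markers, held Acod1 at 467 against 308, Arg1 at 379.6 against 256, Nos2 at 29.5 against 13.4 and Odc1 at 90.6 against 73.2 CPM in cells with Ace or Treml4, again in 4 of 4 libraries. Each of these orders was also found in 4 of 4 libraries when 2 UMIs of the markers were asked for. Gch1 had the opposite order, 98.9 CPM in monocytes with Ace or Treml4 against 83.4 CPM, in 4 of 4 libraries but in 2 of 4 with 2 UMIs. Bst1 was higher in the cells with Ace or Treml4 in 3 of 4 libraries in both settings. How many of all genes show such orders was not counted. Neutrophils with Cxcr2 or Retnlg and without Ngp, Camp and Ltf, at least 20 cells a library, held Acod1 at 361 against 230.3 CPM in those with the granule genes Ngp, Camp or Ltf. Bst1 in these mature neutrophils averaged 598 against 353 CPM, higher in 4 of 4 libraries and in 3 of 4 with 2 UMIs of the markers. Arg1, Odc1 and Ch25h averaged 15.4, 30.8 and 63.6 CPM in the neutrophils with granule genes, levels at which so few mature cells hold few or no UMIs, and no order is read for them. Macrophages without Mrc1 and Pf4, 19 cells or more a library, held Acod1 at 548 against 246 CPM in those with either marker, in 4 of 4 libraries in both settings, and Bst1 was higher in the cells with a marker, 77.3 against 17.9 CPM in 4 of 4 libraries, but 76.9 against 56.9 CPM in 3 of 4 when 2 UMIs of the markers were asked for. Depth per cell is part of how a marker is detected, and its part in these orders was not tested. In LPS dendritic cells, Ch25h lay in cells with Ccr7 or Cacnb3, the migratory type by these markers, at 228 to 295 CPM, and the 0 to 3 cells per library without them held none. Saline dendritic cells were mostly without Ccr7 and Cacnb3 (22 to 54 cells a library, against 6 to 13 with them) and LPS dendritic cells mostly with one of them (39 to 79 cells a library). Saline dendritic cells held 2 Ch25h UMIs in all, and none lay in the 6 to 13 cells a library with Ccr7 or Cacnb3. These are too few cells to read a level from. Ccr7 and Cacnb3 were also among the markers by which the class was gated. The part of this shift in the change of Ch25h in dendritic cells was not tested.

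Cells with Acod1 held Ch25h more often than cells without it. At the thinned depth, 37.6, 23.2, 43.1 and 38.9% of LPS microglia with an Acod1 UMI also had a Ch25h UMI, against 16.1, 5.33, 17.5 and 18.5% of those without. In macrophages the shares were 19.2, 24.7, 23.9 and 32.5% against 8.05, 3.48, 7.36 and 14.5%. In each LPS library of both classes, Ch25h was thus seen more often beside Acod1. Free RNA of these libraries carried both genes, and T and NK cells were not counted in this way. The part of free RNA and of doublets in these shares was not tested. Acod1 and Arg1 in monocytes did not show this, since 14.1, 22.3, 15.02 and 16.5% of monocytes with Acod1 had Arg1, against 11.3, 19.5, 15.7 and 16.3% of those without. Arg1 and Nos2, which draw on the same arginine, overlapped in monocytes, where Nos2 was seen in 3.84, 3.92, 3.33 and 2.33% of cells with Arg1 and in 3.22, 1.37, 1.67 and 1.15% of the rest. Cells of a library are no replicates, and these shares are descriptions of 4 libraries.

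**Figure D4:**
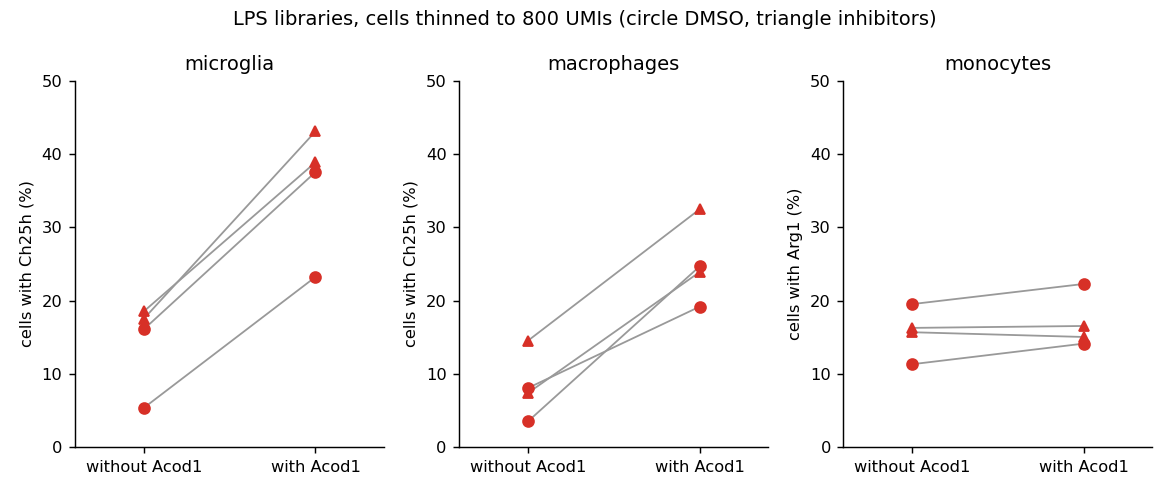
Percent of LPS cells with a UMI of the second gene among cells with and without a UMI of the first, at 800 UMIs per cell, with 1 line per library. Ch25h is more frequent beside Acod1 in all 4 libraries of microglia and macrophages, and Arg1 in monocytes is about as frequent with Acod1 as without.

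DMSO was compared with inhibitors to see whether the dissociation itself moved the enzymes, with injection as a term of the model. Of 34 pairs tested none was called by edgeR, where 3 had an unadjusted p under 0.05 (3.89% of all genes tested), the smallest adjusted p was 0.866 and the log2 fold changes of DMSO over inhibitors ran from -1.10 to 0.75. DESeq2 called 0 as well. The share of all genes called was 0.331% for microglia, 0.399% in macrophages, 0.0600% in monocytes, 0.0799% in neutrophils and 0.167% in dendritic cells. The 3 pairs were Ch25h in neutrophils (-1.10, SE 0.38), Ch25h in microglia (-0.95, SE 0.37) and Upp1 in monocytes (0.75, SE 0.28). In LPS microglia Acod1 averaged 271 CPM with DMSO and 512 CPM with inhibitors, with DMSO replicate 2 the lowest of the 4, and the log2 fold change was -0.76 (SE 0.51, adjusted p = 1.00). In the same libraries the immediate-early genes, which dissociation is known to induce, were higher with DMSO, with 10 of 11 called in microglia, 9 of 11 in macrophages, 6 of 10 tested in monocytes, 3 of 10 in neutrophils and 5 of 8 in dendritic cells. Their median log2 fold change was 3.48, 3.70, 1.88, 1.85 and 2.68 in these classes, against -0.02, 0.00228, 0.00496, 0.00494 and 0.03 for all genes. Some alternatives gave 1 call each. Acod1 in dendritic cells, too sparse for the main test, was lower with DMSO when no filter was applied (log2 fold change -2.78, adjusted p = 1.19e-04), under a replicate block (-2.87, adjusted p = 0.0118) and in the LPS libraries alone (-2.89, adjusted p = 3.04e-04). Its high values in the inhibitor libraries lay in few cells, since 3 cells without Ccr7 and Cacnb3 held 21 of its UMIs in replicate 1 and 1 such cell held 35 in replicate 2. Without LPS DMSO replicate 1, Ch25h in microglia was called lower with DMSO (-1.61, adjusted p = 0.00347). The only LPS DMSO library in that fit was replicate 2, the lowest LPS library for Ch25h in microglia. In the saline libraries alone Ch25h in macrophages was called higher with DMSO (1.49, adjusted p = 0.0344).

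**Figure D5:**
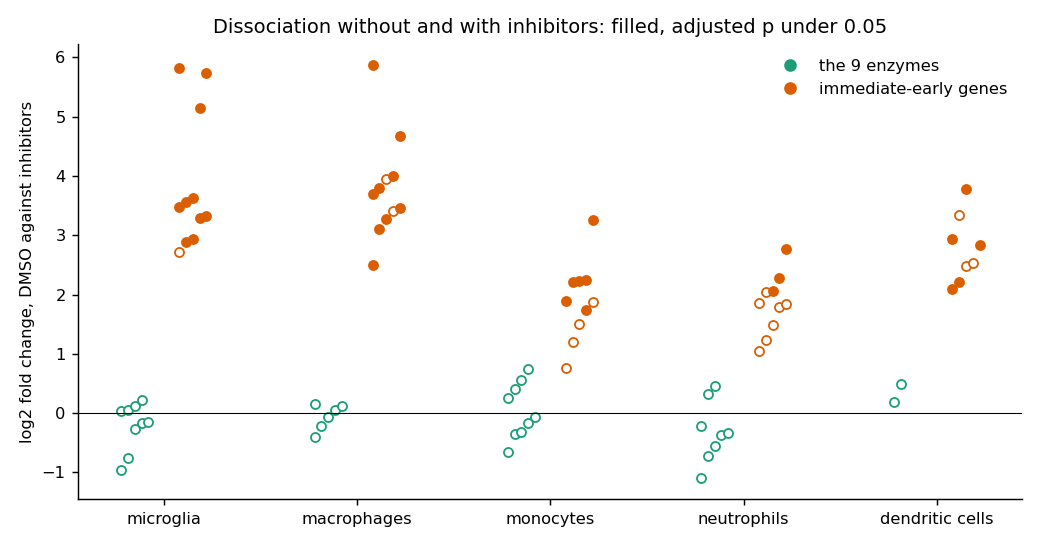
Log2 fold change of DMSO over inhibitors by class, with 1 point per tested gene for the 9 enzymes and for the immediate-early genes, filled where the adjusted p was under 0.05 and open where it was not. The members lie between -1.10 and 0.75 with no pair called, and the immediate-early genes have medians of 1.85 to 3.70.

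Whether the response to LPS depended on the ex vivo treatment was asked with an interaction term. Of 35 pairs tested none was called by edgeR or DESeq2, with 6 at an unadjusted p under 0.05 (3.72% of all genes tested) and a smallest adjusted p of 0.272 (Odc1 in dendritic cells), and over all genes 0.0228% were called. With no filter on low counts Ch25h in macrophages was called, with a difference of -2.20 between the LPS changes with DMSO and with inhibitors (adjusted p = 7.69e-05). Its saline level was 53.9, 38.6, 22.04 and 11.6 CPM, higher in both DMSO libraries. Within the DMSO libraries alone and the inhibitor libraries alone, the LPS change of Ch25h in macrophages was 2.09 and 4.36 on the log2 scale. In neutrophils these values were 5.69 and 3.33 for Upp1, 3.62 and 1.46 for Gch1, and 2.63 and 1.11 for Bst1, and the differences were not called. Without saline inhibitors replicate 1, Odc1 in dendritic cells was called (adjusted p = 0.0355), but the saline inhibitors arm was then 1 library with 0 Odc1 UMIs, assumed to vary like the other groups.

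The other genes of each pathway were counted from lists drawn up with earlier results of these data known, and the counts describe the lists. Every pathway gene named below was called. Counts are read beside the shares of all genes called in the same class. These were 30.2% higher and 35.8% lower in microglia (14.2% and 67.5% with library totals), 25.2% and 25.8% in macrophages (15.2% and 40.9%), 14.8% and 15.6% in monocytes (11.6% and 18.5%), 11.7% and 10.9% in neutrophils (7.72% and 12.6%), and 16.7% and 14.8% in dendritic cells (15.2% and 16.2%). The lists are short, and a count near these shares says nothing of its list. In dendritic cells 1 to 12 genes of a list could be tested and 0 to 3 were called higher. The immediate-early genes had 0 higher and 0 lower of 11 tested (0 and 0 with library totals) in microglia with LPS, 0 higher and 3 lower of 10 tested in monocytes and 2 higher and 1 lower of 10 tested (0 and 1 with library totals) in neutrophils. Around Acod1, the TCA cycle list had 20 higher and 2 lower of 24 tested (11 and 5 with library totals) in microglia and a median log2 fold change of 0.87 against -0.19 for all genes. Its largest change there was that of Slc25a10, the mitochondrial dicarboxylate carrier, from 9.29 to 26.95 CPM (log2 fold change 2.27), followed by Idh3a, a subunit of isocitrate dehydrogenase, from 29.6 to 84.8 CPM (log2 fold change 2.26). In macrophages the list had 10 higher and 3 lower of 24 tested (4 and 7 with library totals), in monocytes 7 higher and 1 lower of 24 tested (5 and 3 with library totals) and in neutrophils 2 higher and 1 lower of 21 tested (0 and 1 with library totals). NRF2 targets had 11 higher and 1 lower of 14 tested (10 and 4 with library totals) in microglia with a median of 1.80, 6 higher and 2 lower of 13 tested (5 and 5 with library totals) in macrophages with a median of 0.07, and 8 higher and 0 lower of 14 tested in monocytes with a median of 0.90. Slc7a11, the cystine transporter, went from 16.5 to 166 CPM (log2 fold change 4.11) in microglia, and Fth1, the ferritin heavy chain, from 2095 to 20791 CPM (log2 fold change 4.05). Hmox1, heme oxygenase, went from 62.5 to 384 CPM (log2 fold change 2.80) in monocytes. Glycolysis genes had 15 higher and 2 lower of 19 tested (12 and 4 with library totals) in microglia, 14 higher and 1 lower of 19 tested (10 and 1 with library totals) in macrophages and 11 higher and 0 lower of 19 tested (10 and 0 with library totals) in monocytes, and 3 higher and 2 lower of 18 tested (2 and 2 with library totals) in neutrophils. Pfkfb3, which makes the activator of phosphofructokinase, went from 53.2 to 507 CPM (log2 fold change 3.59) in macrophages. The genes of LPS sensing had 12 higher and 2 lower of 21 tested (6 and 9 with library totals) in microglia, 3 higher and 7 lower of 21 tested in monocytes and 10 higher and 2 lower of 19 tested (6 and 2 with library totals) in neutrophils, and its inhibitory kinase Irak3 went from 4.78 to 63.7 CPM (log2 fold change 4.49) in microglia.

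Around Ch25h, the oxysterol list had 3 higher and 3 lower of 11 tested (0 and 9 with library totals) in microglia, 1 higher and 2 lower of 10 tested (1 and 4 with library totals) in macrophages and 1 higher and 3 lower of 11 tested in monocytes. Cyp27a1, the sterol 27-hydroxylase, fell in macrophages from 117 to 4.36 CPM (log2 fold change -4.39). Gpr183, the receptor of the dihydroxylated product of Ch25h, fell in macrophages from 171 to 31.6 CPM (log2 fold change -2.11) and in monocytes from 71.8 to 9.28 CPM (log2 fold change -2.74), and rose in dendritic cells from 76.8 to 169.8 CPM (log2 fold change 1.05). Nr1h3, the oxysterol receptor LXR alpha, rose in monocytes from 5.84 to 86.2 CPM (log2 fold change 3.999). Arginine supply had 9 higher and 1 lower of 12 tested (4 and 3 with library totals) in microglia and 5 higher and 1 lower of 10 tested (4 and 1 with library totals) in macrophages. Slc7a2, the arginine transporter that inflammation induces, went from 5.21 to 178 CPM (log2 fold change 5.42) in macrophages, and Ass1, which regenerates arginine from citrulline, from 2.85 to 24.7 CPM (log2 fold change 3.85) in microglia. Ddah2, which degrades an inhibitor of nitric oxide synthases, fell in microglia from 54.03 to 3.06 CPM (log2 fold change -3.40).

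Around Gch1, the tetrahydrobiopterin list had 4 higher and 3 lower of 10 tested (1 and 6 with library totals) in microglia, 0 higher and 4 lower of 7 tested (0 and 6 with library totals) in macrophages, 0 higher and 4 lower of 8 tested in monocytes and 0 higher and 2 lower of 5 tested in neutrophils. Pts, the second enzyme of the pathway, fell in monocytes from 49.3 to 19.4 CPM (log2 fold change -1.27), and Agmo, a tetrahydrobiopterin-dependent lipid monooxygenase, fell in microglia from 198 to 15.4 CPM (log2 fold change -2.93). Around Odc1, the polyamine list had 11 higher and 3 lower of 15 tested (6 and 4 with library totals) in microglia and 5 higher and 5 lower of 14 tested (4 and 6 with library totals) in macrophages. In monocytes the list had 4 higher and 4 lower of 15 tested (3 and 4 with library totals). Eif5a, the translation factor that carries a modified spermidine, went from 212 to 1196 CPM (log2 fold change 3.24) in microglia, Azin1, which protects Odc1 from degradation, from 32.5 to 194 CPM (log2 fold change 2.88) in macrophages, and Srm, spermidine synthase, from 26.8 to 65.4 CPM (log2 fold change 1.44) in monocytes. Around Upp1, the uridine and pyrimidine list had 11 higher and 6 lower of 20 tested (6 and 10 with library totals) in microglia, 1 higher and 3 lower of 17 tested in monocytes and 2 higher and 2 lower of 11 tested (1 and 2 with library totals) in neutrophils. Entpd1 (CD39), which degrades extracellular nucleotides, fell in microglia from 585 to 37.9 CPM (log2 fold change -3.21). Around Bst1, the NAD list had 8 higher and 6 lower of 19 tested (3 and 11 with library totals) in microglia and 4 higher and 0 lower of 6 tested (3 and 0 with library totals) in neutrophils. In monocytes the list had 3 higher and 2 lower of 12 tested (2 and 3 with library totals). Cd38, the related NAD-consuming surface enzyme, rose in monocytes from 16.6 to 609 CPM (log2 fold change 5.20) and in microglia from 2.71 to 38.7 CPM (log2 fold change 4.58), while Qprt, of NAD synthesis from tryptophan, fell in microglia from 8.58 to 0.283 CPM (log2 fold change -4.18).

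For each member the 3 genes most like it were taken by Pearson's r of log2(CPM + 1) over 40 pseudobulks (5 classes in 8 libraries), among 9199 genes with a mean of at least 10 CPM that were neither members nor gating markers. The pseudobulks share libraries and classes, so r describes the pattern and carries no p. Acod1 was most like Marco (r = 0.92), Sod2 (r = 0.91) and Edn1 (r = 0.90). Ch25h was most like 9030624G23Rik (r = 0.91), Fth1 (r = 0.91) and Sdc4 (r = 0.90). For Arg1 they were Magohb (r = 0.82), Psmd2 (r = 0.80) and Pkm (r = 0.80), and for Arg2 Phospho1 (r = 0.88), Hdc (r = 0.88) and Anxa11 (r = 0.87). For Nos2 they were Fbxl5 (r = 0.79), Sys1 (r = 0.76) and N4bp1 (r = 0.75). Gch1 was nearest to Pitpna (r = 0.87), Ifitm3 (r = 0.85) and Zbp1 (r = 0.85), and Odc1 to Med16 (r = 0.82), Orc2 (r = 0.80) and Nploc4 (r = 0.78). Upp1 was nearest to Slfn4 (r = 0.80), Stfa3 (r = 0.77) and Efhd2 (r = 0.77), and Bst1 to Pira2 (r = 0.89), Capns1 (r = 0.88) and Nadk (r = 0.88). Acod1 and Ch25h had the closest partners (r of 0.90 or more for all 3), and Nos2 the least close.

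The endothelial cells that came through the CD45 selection are no myeloid class but carried members too, and their values are given as a description. Ch25h stood there at 9.75, 28.7, 41.6 and 8.42 CPM with saline and at 829.7, 774, 837 and 639 CPM with LPS, higher than the mean of any myeloid class. Free RNA of the LPS libraries held Ch25h at 122 to 431 CPM. The free share of endothelial RNA, scaled to hemoglobin, was 0.0317 and 0.0777 in LPS DMSO replicate 1 and LPS inhibitors replicate 2, but reached its cap of 1 in the remaining LPS libraries and lay between 0.158 and 0.718 with saline, and its part in these levels was not tested. Upp1 stood at 0, 0.870, 6.60 and 3.37 CPM and 284, 321, 380.0 and 247 CPM, and Odc1 at 21.01 to 33.1 and 114 to 236 CPM. Nos2 had the opposite order, at 27.8, 22.6, 20.5 and 14.04 CPM with saline and 4.99, 8.77, 5.80 and 6.01 CPM with LPS. Acod1 in endothelial cells of LPS libraries (24.8 to 87.02 CPM) lay in the range of T and NK cells (5.54 to 201 CPM). The number of mice limits all tests. The p-values of LPS against saline and of DMSO against inhibitors measure the spread between 4 mice and 4 mice. The joint fit compared classes within mice, and the interaction had 2 mice per combination. An exact permutation test of 1 value between 4 mice and 4 mice cannot go below 0.0286.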

How the data were processed

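Single-cell UMI counts of 8 libraries were analysed. The authors made the deposited count matrices with PIPseeker v2.0 and STAR on the reference written GRCmm39 with GENCODE genes. The labels name Seurat 4. Cells with 800 to 44999 UMIs, 250 to 6499 genes and under 5% mitochondrial UMIs were kept. A class was given where at least 3 of its markers lay above free RNA (Poisson p under 0.05, 10% free RNA assumed) and its score led by 0.08, a rule set after the data were seen, and class names are thus rebuilt here. Cells with mixed markers, doublets among them, stayed unassigned, and no doublet caller was run. Symbols given to more than 1 identifier numbered 27.

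UMIs were summed per library and class (at least 10 cells) and tested with edgeR 4.0.16 (quasi-likelihood F-test, robust, TMM, filterByExpr) in R 4.3.3 with limma 3.58.1, with Benjamini-Hochberg adjustment over all genes tested. SE is the log2 fold change divided by the square root of F. DESeq2 1.42.0, other scalings, filters, gates, free RNA subtraction, leaving out each library and a replicate block were alternatives. The edgeR fits of microglia, neutrophils and dendritic cells and the joint contrast of monocytes against microglia were first tested on simulated data. The other fits were not. Python 3.11.15, numpy 2.4.6, pandas 2.3.3, scipy 1.17.1 and matplotlib 3.10.9 did the rest. Shares of cells were expected values after thinning each cell to 800 UMIs. Intervals and floors cover counting error only.

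The members, gene lists and tests were chosen with earlier results of these data known. All members are named, as are up to 3 genes with the largest called change per pathway list and class (those described are a part of these) and the 3 genes most like each member. Replicate numbers mark a shared capture batch per the labels, which is where the pairing comes from, and deviations of same-numbered libraries correlated at -0.016 to 0.48. The promoter table is of another build than the counts and serves for sequence only.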

Additional observations from a re-analysis of the deposited data

Results flagged for a closer look

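In 62 groups of 4 libraries checked for a library far from the others, 3 had one, and chance gives about 1 in 20. Ch25h in LPS monocytes was 7.26 CPM (25 UMIs) in DMSO replicate 2, against 37.9 to 42.9 CPM in the other LPS libraries. Nos2 in LPS microglia was 0.439 CPM (27 UMIs) in DMSO replicate 1, against 0.323 to 0.332 CPM. Upp1 in saline neutrophils was 24.4 CPM (6 UMIs) in inhibitors replicate 2, against 0 to 2.97 CPM.

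By class, 23.2 to 34.0% of all genes tested were called for an LPS change other than that of microglia. The LPS change of members was called different from that of microglia, by edgeR's test of the difference itself, in 15 of 36 pairs tested. On the log2 scale it was smaller for Acod1 in neutrophils (-5.29), for Ch25h in macrophages (-5.01), for Gch1 in monocytes (-1.24) and dendritic cells (-3.03), for Odc1 in neutrophils (-1.34) and dendritic cells (-1.67), and for Bst1 in macrophages (-1.12), monocytes (-1.18), neutrophils (-1.89) and dendritic cells (-3.96). It was larger for Upp1 in monocytes (4.60) and neutrophils (3.16), for Nos2 in monocytes (5.67) and for Arg2 in macrophages (3.16). Nos2 in neutrophils had a fitted difference of 11.50, which depends on the prior count because the saline neutrophils held 0 UMIs. Some of these calls were lost in alternatives, as described above. They were Bst1 in macrophages and monocytes, Odc1 in neutrophils and dendritic cells, Arg2 in macrophages and Gch1 in dendritic cells.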

How the results depend on the processing

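Over 31 LPS fold changes and their alternatives, 595 of 611 values kept direction and call, and 224 of 255 did for the 15 differences from microglia. The count of LPS calls ran from 25 to 32, and from 26 to 28 when 1 library was left out. It was 27 with DESeq2, 29 with library totals (an alternative chosen after seeing the data), 32 with no filter and 25 with free RNA subtracted. Ch25h in monocytes lost its call with the DMSO libraries alone (4.88, adjusted p = 0.0726) and had too few UMIs for the test without LPS DMSO replicate 1 or without either LPS inhibitors replicate, and Gch1 in monocytes lost it with the inhibitor libraries alone. Ch25h and Nos2 in neutrophils fell under the filter on low counts in cells with at least 1500 UMIs. The differences from microglia ran from 10 to 15. Without saline inhibitors replicate 2, the log2 fold change of Gch1 in neutrophils was 3.45. Reversed values concerned 2 genes that were not called. Nos2 in microglia was 0.0539 with the DMSO libraries alone. Arg2 in microglia was -0.0618 with free RNA subtracted, -0.77 with library totals and -0.0233 with the inhibitor libraries alone, and ran from -0.22 to 0.28 when 1 library was left out. Arg2 in neutrophils was 0.13 with no filter, 0.29 in cells with at least 1500 UMIs, 0.00820 with a term for ex vivo treatment and 0.82 with the DMSO libraries alone, and ran from -0.38 to 0.40 when 1 library was left out. The cause was not tested. DMSO against inhibitors gave 1 call with no filter, 1 with the replicate block, 1 in the saline libraries alone and 1 in the LPS libraries alone, and 0 to 1 when 1 library was left out. The interaction gave 1 call with no filter and 0 to 1 when 1 library was left out. With the replicate block 28 LPS pairs were called, 1 DMSO pair, 0 interactions and 14 differences from microglia. The block added Arg1 in macrophages (4.64, adjusted p = 1.74e-07) and changed no other LPS call.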
